A study of Mus musculus with 54 samples.

Results

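The genes of the JAK-STAT pathway were followed in macrophages sorted from the mouse brain at rest and after endotoxin. The members were the rows of 9 gene symbols, taken by symbol from all 3 count tables. They were the transcription factor genes Stat2, Stat3, Stat5a, Stat5b and Stat6 and the kinase genes Jak1, Jak2, Jak3 and Tyk2. All 9 were present among 33280 symbols and passed the filter on low counts in every fit.

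Many cytokine receptors have no kinase of their own and carry Janus kinases (JAKs) on their cytoplasmic tails. When a ligand binds, the JAKs phosphorylate the receptor and the STAT proteins (signal transducers and activators of transcription) docked on it, and the STATs pair, enter the nucleus and bind DNA. Macrophages use this route to answer interferons, the IL-6 and IL-10 families, GM-CSF and IL-4, and a macrophage exposed to lipopolysaccharide (LPS), a bacterial endotoxin, releases several of these cytokines itself.

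The study asked how origin and niche shape the response of brain macrophages to endotoxin after depletion and repopulation. Microglia (MG), which lie in the brain tissue, and CD206+ subdural CNS-associated macrophages (sdCAMs), which lie in the leptomeninges and around vessels, were sorted from brains without choroid plexus. The data comprised 54 libraries from 24 mice, in 18 groups of 3 libraries. Wild-type mice (WT, C57BL/6JCrl) and mice with a germline Ccr2 deletion (Ccr2-/-, B6.129S4-Ccr2tm1Ifc/J) were untreated and given PBS, given vehicle (CTL) and LPS, or given BLZ945 and LPS. BLZ945 blocks the CSF1 receptor, on which these macrophages depend, and removes them. Reporter mice labelled Ccr2CreERT2/CreERT2:R26tdT/tdT (Ccr2Cre) all received BLZ945 and 2 mg tamoxifen injections, then PBS or LPS. Their sdCAMs were sorted into tdTomato-positive (tdT+) cells, whose ancestors had Ccr2 switched on at the time of the tamoxifen, and tdT- cells. LPS or PBS was given 12 h before sorting and 8 weeks after the end of treatment. In WT and Ccr2-/- mice the LPS group had received vehicle and the PBS group had not, so LPS and vehicle cannot be told apart. The Ccr2Cre mice carry the Cre in the Ccr2 locus on both alleles per the label, and their PBS group had been depleted too, so it is not a resting group of the same kind as the untreated one.

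Library totals were 1705930 to 7699790 counts in WT sdCAMs and 2060240 to 11330781 counts elsewhere, and Stat5a and Jak2 in CTL LPS sdCAMs of WT mouse 4 rested on 5 counts each. In tdT+ sdCAMs totals were 2060240 to 5467630 counts after LPS against 8652557 to 9290262 after PBS. In tdT- sdCAMs they were 3211833 to 8751293 against 9182362 to 9850283, so depth and LPS went together there. The 5 MG markers summed to 15553 to 26444 TMM-scaled counts per 1000000 (CPM) in MG at rest, and the 6 sdCAM markers to 6968.6 to 14356 CPM in sdCAMs at rest, against at most 22.565 CPM in MG at rest. Ccr2 lay at 17 to 51 CPM in untreated WT sdCAMs and at 2.33 to 5.21 CPM in untreated Ccr2-/- sdCAMs. After CTL and LPS it was 0 to 0.755 CPM in WT sdCAMs, below the 3.05 to 5.48 CPM of Ccr2-/- sdCAMs, and in MG its ranges overlapped between the genotypes at rest and after LPS, so Ccr2 checks the label only in untreated sdCAMs. In the tdT+ LPS library of mouse 5, MG markers reached 82.6% of their level in MG of the same mouse. The columns of tdT- mouse 1 and tdT+ mouse 7 after LPS carry sequencing indices that the labels give to the other, and sex-linked transcripts were mixed within 2 of 24 mice with the columns as named and within 0 when the columns were exchanged. With the columns as named, the acute-phase gene Saa3 took 0.68%, 2.14% and 2.74% of counts in the tdT+ libraries after LPS and 14.5%, 17.8% and 28.3% in the tdT- libraries, and with the exchange these ranges overlapped, at 0.68% to 14.5% and 2.74% to 28.3%. Of the 2 assignments, the exchange is the one without mixed mice, and Saa3 is a response to LPS rather than a mark of identity. No other check of the assignment was made, and the columns were nevertheless used as named. Results in tdT+ or tdT- sdCAMs after LPS that do not hold with the exchange therefore rest on the assignment that mixes sexes within mice. The Ccr2Cre MG library of mouse 175 after PBS had 0 counts of Stat2. Values with those columns exchanged, called the exchange, or with the single libraries left out are given beside many, but not all, of the LPS responses they bear on. In 6 WT sdCAM libraries, among them all 3 of the CTL LPS group, the labels mark an IEG correction that they do not explain.

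At rest, Stat6 and Jak1 were the most abundant members per length in all 7 populations of untreated or PBS-injected mice. In untreated WT MG, Stat6 stood at 56.6 ± 4.52 CPM per kb of exon (SD, n = 3) and Jak1 at 47 ± 2.10 CPM per kb, with no overlap between them. Stat3 followed at 19.5 ± 1.19 CPM per kb, then Stat5b at 14.6 ± 1.11, Tyk2 at 13.4 ± 3.46 and Jak3 at 11.6 ± 0.408 CPM per kb. Stat5b and Tyk2 overlapped in range, as did Tyk2 and Jak3. Jak2 at 9.55 ± 2.00 and Stat2 at 8.59 ± 1.52 CPM per kb overlapped too, and Stat5a came last at 2.33 ± 0.551 CPM per kb. Untreated Ccr2-/- MG had Stat6 at 49.9 ± 4.00 and Jak1 at 46.9 ± 3.92 CPM per kb, which overlapped, and again Stat5a last at 2.68 ± 0.555 CPM per kb.

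In sdCAMs of untreated mice Stat2 stood higher in this order than in MG. Stat2 was the third most abundant member in untreated WT sdCAMs at 12.7 ± 3.86 CPM per kb and in Ccr2-/- sdCAMs at 17.4 ± 1.48 CPM per kb, although its range overlapped those of the next members. In WT sdCAMs Jak1 led at 44.5 ± 2.06 CPM per kb and Stat6 came second at 26.2 ± 10.3 CPM per kb, whereas in Ccr2-/- sdCAMs Stat6 led at 65.1 ± 4.38 CPM per kb and Jak1 stood at 44.2 ± 2.00 CPM per kb. Stat5a was lowest in all 7 resting populations. Stat5a and Stat5b are near copies of each other on chromosome 11, and 8.52% and 11% of their possible 50-base reads were also found in another gene, which among the members was each other or, for Stat5a, Stat3, so their levels are uncertain to that extent. Tyk2 overlaps the antisense gene 1700084C06Rik over 8.07% of its exons and Jak3 overlaps Insl3 over 7.55%, and reads there cannot be told apart without the strand of counting, which was not given for these tables, or at all for Insl3, which lies on the same strand as Jak3.

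**Figure D1:**
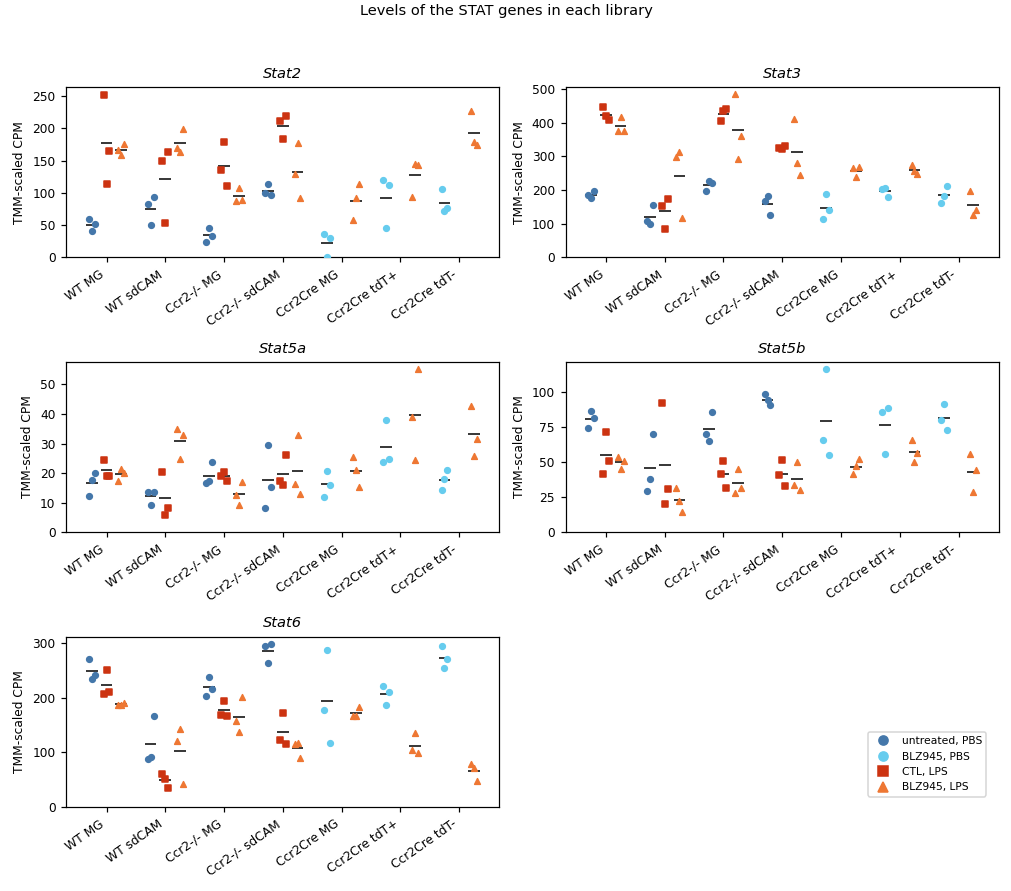
Levels of the 5 STAT genes in TMM-scaled CPM (vertical axes, from 0) in each of the 54 libraries, by population (horizontal axes) and condition (colour and symbol), with a bar at the mean of each group of 3. Stat2 and Stat3 lay higher after CTL and LPS in WT and Ccr2-/- MG and in Ccr2-/- sdCAMs, while Stat6 lay lower after LPS in Ccr2-/- sdCAMs and in tdT- sdCAMs of Ccr2Cre mice.

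In response to LPS, Stat2 and Stat3 rose in WT and Ccr2-/- MG and in Ccr2-/- sdCAMs, Jak3 rose in WT and Ccr2-/- MG, Jak2 rose in Ccr2-/- sdCAMs, and Stat5b, Stat6 and Tyk2 fell in one or more populations. A gene passed at a Benjamini-Hochberg adjusted p under 0.05 over all genes tested. In WT MG 4 of 9 members passed, where 30.9% of all 11789 genes did, and in Ccr2-/- MG 4 of 9 passed, where 34.9% of all genes did. In Ccr2-/- sdCAMs 6 of 9 members passed, against 28.8% of all genes. In WT sdCAMs 0 of 9 passed in edgeR and 0 in DESeq2, with 1 at an unadjusted p under 0.05, and 6.32% of all genes passed. In the Ccr2Cre mice 0 members passed in MG, where 1.08% of genes did and where 0 members were at an unadjusted p under 0.05. In tdT+ sdCAMs 0 passed in edgeR and 3 in DESeq2, with 3 at an unadjusted p under 0.05 in edgeR and 13.6% of genes passing, and in tdT- sdCAMs 2 passed, against 27.1% of genes. The median log2 fold change of all genes lay within 0.08 of 0 in these 7 comparisons, and that of the members between -0.47 and 0.40. TMM scaling places most genes near 0, so the median over all genes cannot show a shift that most genes share. These are bulk libraries, in which fewer cells of a type and less RNA per cell cannot be told apart.

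**Figure D2:**
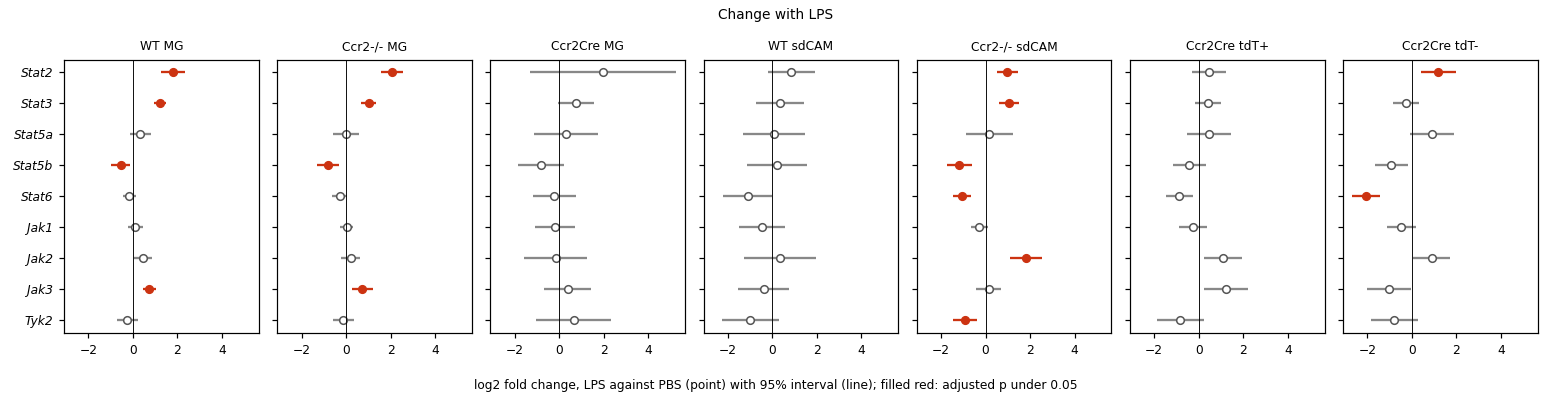
Log2 fold changes with LPS (horizontal axes) of the 9 members in 7 populations, as points with 95% intervals, filled where the adjusted p was under 0.05. Stat2 and Stat3 both passed in WT MG, Ccr2-/- MG and Ccr2-/- sdCAMs, and the interval of Stat2 in Ccr2Cre MG ran from -1.31 to 5.26.

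Stat2 joins IRF9 in ISGF3, the complex that carries the signal of type I interferons to interferon-stimulated response elements (ISREs). In MG its level rose 3.48-fold in WT and 4.20-fold in Ccr2-/- mice. In WT MG it was 59.1, 41.2 and 52.5 CPM in untreated mice and 251, 114 and 165 CPM after LPS. Every LPS library lay above every untreated library (log2 fold change 1.80 ± 0.25 SE, adjusted p = 0.000296 by edgeR's quasi-likelihood test). In Ccr2-/- MG it went from 24.6, 44.9 and 33.4 CPM to 135, 180 and 111 CPM, again without overlap (2.07 ± 0.23, adjusted p = 1.29e-05).

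In sdCAMs Stat2 rose in Ccr2-/- mice and, only with the columns as named, in tdT- cells. Ccr2-/- sdCAMs held 100.1, 113 and 96.6 CPM of Stat2 untreated and 211, 183 and 218 CPM after LPS, without overlap (log2 fold change 0.98 ± 0.22, adjusted p = 0.00493). WT sdCAMs held 82.5, 49.9 and 94 CPM untreated and 149, 53.6 and 163 CPM after LPS, and mouse 4, at 53.6 CPM on 46 counts, lay within the untreated range (0.85 ± 0.48, adjusted p = 0.303). In tdT- sdCAMs Stat2 went from 106, 71.8 and 75.9 CPM after PBS to 228, 179 and 174 CPM after LPS and the groups did not overlap (1.19 ± 0.37, adjusted p = 0.0259). With the disputed columns exchanged the change in tdT- sdCAMs was 0.97 with an adjusted p of 0.162, and it passed in 3 of the 6 fits that left out a library, without tdT- mouse 1 after LPS (1.02, adjusted p = 0.0825) and without mouse 175 (1.04, 0.123) or 177 (1.07, 0.116) after PBS it did not. With the tdT+ and tdT- counts of each mouse summed, Stat2 changed by 0.79 (adjusted p = 0.0644). In tdT+ sdCAMs it was 121, 45 and 112 CPM after PBS and 93.3, 146 and 143 CPM after LPS, with overlap (0.47 ± 0.37, adjusted p = 0.442).

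In MG of Ccr2Cre mice Stat2 was 36.8, 0 and 30.0 CPM after PBS and 57.6, 91.6 and 114 CPM after LPS. The groups did not overlap, but the change of 1.97 had an interval of -1.31 to 5.26 on the log2 scale (adjusted p = 0.637). Without mouse 175, whose library held 0 counts of Stat2, the change was 1.39 (adjusted p = 0.132).

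The promoter of Stat2 is shown because it was the only one of the 9 members' promoters in the RefSeq table with a match to the ISRE core, which is GAAA, any 2 bases and GAAA again, searched on both strands. The window runs from 250 bases before to 50 bases after the transcription start, at chr10:128270248-128270547 on the plus strand of GRCm38.p6, and capitals mark the match, which reads on the opposite strand and starts 222 bases before the transcription start.

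Stat2: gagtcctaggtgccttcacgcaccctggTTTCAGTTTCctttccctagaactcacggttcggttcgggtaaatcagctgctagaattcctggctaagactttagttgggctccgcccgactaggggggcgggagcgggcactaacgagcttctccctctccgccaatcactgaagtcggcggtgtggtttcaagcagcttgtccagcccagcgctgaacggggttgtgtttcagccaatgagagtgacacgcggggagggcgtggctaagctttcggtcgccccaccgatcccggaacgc

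Of 32851 promoters of this length in the table, 3.44% held the ISRE core and 8.3% held the core of the GAS element that STAT homodimers bind, TTCNNNGAA, which has the same letters on both strands and was found in 0 of the members' promoters. A match to these letters is a description of the sequence only.

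Stat3, which carries the signal of the IL-6 and IL-10 families, rose 2.02- to 2.29-fold in the 3 populations where it passed. In WT MG it was 184, 175 and 197 CPM in untreated mice and 446, 419 and 406 CPM after LPS, with a wide gap between the groups (log2 fold change 1.20 ± 0.12, adjusted p = 3.57e-05). In Ccr2-/- MG it went from 197, 228 and 219 CPM to 406, 433 and 441 CPM (1.01 ± 0.16, adjusted p = 0.000311), again with the groups apart. In Ccr2-/- sdCAMs it rose from 167, 183 and 126 CPM to 324, 321 and 331 CPM (1.04 ± 0.21, adjusted p = 0.00222), and the LPS libraries lay within a narrow band above all untreated ones. It passed in every one of the 6 fits that left out a library in each of these 3 populations.

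In the other populations Stat3 did not pass. WT sdCAMs held 107, 101 and 154 CPM untreated and 153, 83.9 and 173 CPM after LPS, with overlap, and the interval of the log2 change ran from -0.76 to 1.42. In tdT+ sdCAMs every LPS library, at 275, 257 and 248 CPM, lay above every PBS library, at 203, 207 and 180 CPM, for a log2 change of 0.40 ± 0.27 (adjusted p = 0.364). The value of 248 CPM is that of the disputed library of mouse 7, and with the exchange 197 CPM takes its place, within the PBS range, for a change of 0.31 (adjusted p = 0.648). In tdT- sdCAMs the LPS range of 126 to 197 CPM overlapped the PBS range of 161 to 211 CPM (-0.26 ± 0.27, adjusted p = 0.516, and -0.10, 0.880 with the exchange). Ccr2Cre MG went from 114, 188 and 140 CPM to 264, 238 and 268 CPM without overlap, with a log2 change of 0.76 ± 0.34 and an adjusted p of 0.390, or of 1.02 and 0.140 without mouse 175.

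Stat5a and Stat5b, which transmit signals of GM-CSF and related cytokines, were tested in the same 7 populations. Stat5b fell in Ccr2-/- sdCAMs from 98.8, 94.8 and 90.8 CPM to 40.7, 51.9 and 32.8 CPM (log2 fold change -1.18 ± 0.25, adjusted p = 0.00377), with a gap between the groups. In Ccr2-/- MG it went from 70.1, 65 and 86.2 CPM to 41.7, 50.8 and 31.3 CPM (-0.82 ± 0.22, adjusted p = 0.0117), also without overlap, and it missed the threshold without LPS mouse V4f (-0.65, adjusted p = 0.0636) or untreated mouse 5f (-0.68, 0.0600). In WT MG the fall was near the threshold, from 74.7, 87.0 and 81.5 CPM to 41.7, 71.9 and 51.1 CPM. The WT MG groups did not overlap (-0.56 ± 0.19, adjusted p = 0.0467), and only 1 of 6 fits that left out a library passed. Those without LPS mouse 1 (adjusted p = 0.138) or 6 (0.144), or without untreated mouse 14 (0.137), 15 (0.110) or 9 (0.0691), did not.

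In the 3 Ccr2Cre populations the log2 changes of Stat5b were -0.81 ± 0.45 (MG), -0.42 ± 0.34 (sdCAMs, tdT+) and -0.93 ± 0.35 (sdCAMs, tdT-), with adjusted p of 0.507, 0.466 and 0.0588. In tdT- sdCAMs it passed without LPS mouse 1 (-1.21, adjusted p = 0.0315). With the exchange the changes were -0.42 in tdT+ (adjusted p = 0.522) and -0.93 in tdT- sdCAMs (adjusted p = 0.122), and without mouse 175 the change in Ccr2Cre MG was -0.37 (adjusted p = 0.651). WT sdCAMs went from 29.6, 37.7 and 70.0 CPM to 92.5, 19.8 and 30.7 CPM, a spread that spanned the untreated range (0.22 ± 0.61). Stat5a passed in 0 of the 7 populations, its level ran from 5.83 to 55.2 CPM over all libraries, and its log2 changes ranged from 0.00 in Ccr2-/- MG, with an interval of -0.56 to 0.57, to 0.91 in tdT- sdCAMs, with an interval of -0.08 to 1.9.

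Stat6, the factor of IL-4 and IL-13 signalling, fell in sdCAMs. In Ccr2-/- sdCAMs it was 296, 264 and 300 CPM untreated and 123, 171 and 115 CPM after LPS, and the groups did not overlap (log2 fold change -1.07 ± 0.19, adjusted p = 0.00105). In tdT- sdCAMs it was 295, 255 and 271 CPM after PBS and 78.4, 71.9 and 47.1 CPM after LPS, far below every PBS library, a 4.16-fold lower level (-2.06 ± 0.30, adjusted p = 0.000116). With the 2 columns exchanged the change in tdT- sdCAMs was -1.92 (adjusted p = 0.00670), and with tdT+ and tdT- counts summed per mouse it was -1.45 (adjusted p = 0.00343). Stat6 passed in all 6 fits that left out a library in both of these populations.

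In tdT+ sdCAMs Stat6 went from 222, 187 and 210 CPM to 104, 135 and 98.0 CPM without overlap. The log2 change of -0.87 ± 0.29 had an adjusted p of 0.0556, and it passed with DESeq2 (-0.84, adjusted p = 0.0168) and without LPS mouse 5, the library with the high MG markers (-1.04, adjusted p = 0.0356), but not with the exchange (-0.96, adjusted p = 0.123). WT sdCAMs went from 86.8, 91.6 and 167 CPM to 59.7, 50.1 and 35 CPM, without overlap (-1.11 ± 0.50, adjusted p = 0.196). With the marked libraries alone the WT sdCAM change was -0.81 (adjusted p = 0.312), and with the IEG mark as a covariate it was -0.68 (adjusted p = 0.314). In MG the log2 changes of Stat6 were small, -0.15 in WT, -0.29 in Ccr2-/- and -0.23 in Ccr2Cre mice, with intervals of -0.44 to 0.14, -0.63 to 0.05 and -1.20 to 0.74. Without mouse 175 the value in Ccr2Cre MG was 0.22 (adjusted p = 0.791).

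Other measures moved in the same sdCAM libraries. Saa3 took 14.5% to 28.3% of all counts in tdT- LPS libraries, 0.68% to 2.74% in tdT+ LPS libraries, 23% to 35.8% in WT CTL LPS sdCAMs and 5.88% to 6.71% in Ccr2-/- CTL LPS sdCAMs, against at most 0.167% in sdCAMs of PBS-injected mice. The sum of the 5 neutrophil markers was 598.32 to 2358.8 CPM in tdT- LPS libraries against 0 to 4.3252 CPM after PBS, 360.12 to 3281.6 against 0 to 94.202 CPM in WT sdCAMs, 77.439 to 122.79 against 0.90528 to 2.5108 CPM in Ccr2-/- sdCAMs and 16.341 to 70.871 against 0 to 1.3768 CPM in tdT+ sdCAMs, and 2 or 3 of the 5 were at 0 in every library of these LPS groups. The 5 monocyte markers summed to 144.58 to 349.56 CPM in Ccr2-/- sdCAMs after LPS against 2.3266 to 5.2054 CPM untreated. In WT sdCAMs they summed to 52.444 to 80.768 against 28.792 to 52.162 CPM. In tdT- sdCAMs they summed to 226.26 to 334.4 against 142.41 to 316.51 CPM, and in tdT+ sdCAMs to 57.477 to 287.15 against 229.89 to 285.68 CPM, with overlap in both fractions. The sdCAM markers summed to 4517.7 to 4972 CPM in Ccr2-/- sdCAMs after LPS against 13817 to 14205 CPM untreated, to 4216.6 to 6996.1 against 9497.2 to 12000 CPM after PBS in tdT- and to 515.46 to 3904.6 against 7283.4 to 8100.8 CPM in tdT+ sdCAMs, but in WT sdCAMs to 11264 to 24768 against 6968.6 to 14356 CPM, with overlap. The MG markers, from cells in which Stat6 is also abundant, summed to 348.87 to 536.73 CPM after LPS against 2629.3 to 3499.6 CPM untreated in Ccr2-/-, to 411.9 to 823.65 against 3807 to 6475.8 CPM in WT, to 162.25 to 262.71 against 2084.3 to 2572.7 CPM in tdT- and to 257.04 to 2300.8 against 1771.7 to 1868.7 CPM in tdT+ sdCAMs. They were also lower after LPS in MG, at 1757.1 to 4924.3 against 15553 to 26444 CPM over the 3 kinds of mice. Astrocyte markers summed to at most 168 CPM and neuron markers to at most 301 CPM in any sdCAM library, T cell markers to at most 124, B cell markers to at most 48.1, NK cell markers to at most 54.6 and endothelial markers to at most 50.3 CPM. The part of these measures in the changes of Stat2, Stat3, Stat5b, Stat6, Jak2 and Tyk2 in sdCAMs was not tested.

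**Figure D3:**
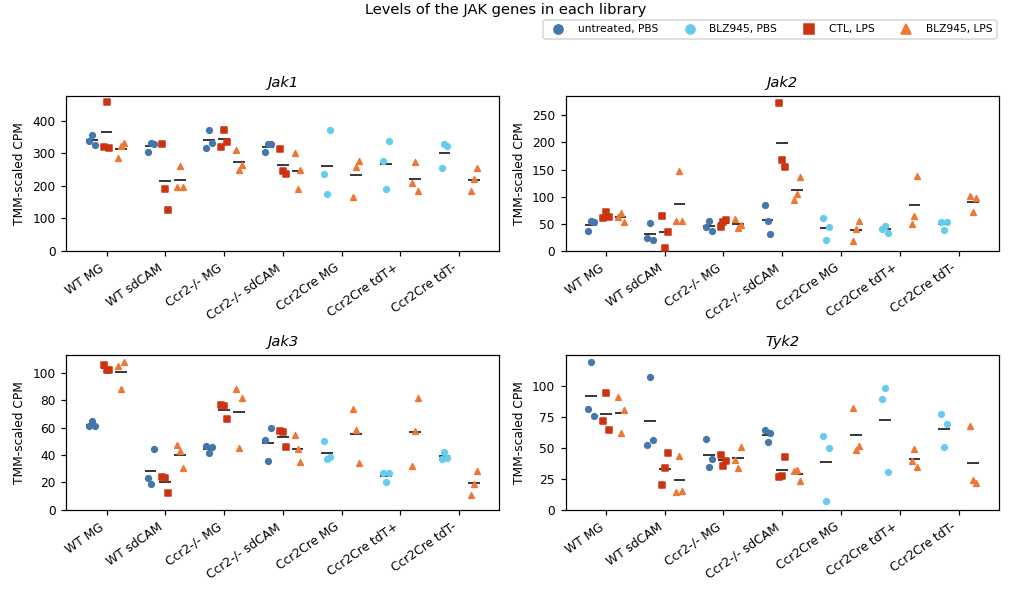
Levels of the 4 JAK genes in TMM-scaled CPM (vertical axes, from 0) in each of the 54 libraries, by population (horizontal axes) and condition (colour and symbol), with a bar at the mean of each group of 3. Jak2 stood highest in Ccr2-/- sdCAMs after CTL and LPS, at 154 to 272 CPM, and Jak3 lay higher after CTL and LPS in WT and Ccr2-/- MG.

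Jak2, the kinase of the GM-CSF and interferon gamma receptors, rose 3.48-fold in Ccr2-/- sdCAMs. It was 84.3, 54.8 and 31.8 CPM in untreated mice and 272, 168 and 154 CPM after LPS, so every LPS library lay above every untreated one, and mouse V1m stood well above the other two (log2 fold change 1.80 ± 0.33, adjusted p = 0.00133). All 6 fits that left out a library passed. In Ccr2-/- MG it stayed between 36 and 57 CPM in both groups, with overlap (0.20 ± 0.20, adjusted p = 0.468).

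In tdT- sdCAMs Jak2 was 53.6, 39 and 52.7 CPM after PBS and 101, 71.9 and 96.5 CPM after LPS, without overlap, for a log2 change of 0.89 ± 0.39 (adjusted p = 0.106, and 0.0327 with DESeq2). In tdT+ sdCAMs it was 40.9, 45.3 and 32.5 CPM after PBS and 50.1, 64.4 and 138 CPM after LPS, also without overlap, for a log2 change of 1.09 ± 0.39 (adjusted p = 0.0778, and 0.0408 with DESeq2). With the tdT+ and tdT- counts of each mouse summed, the change was 0.94 (adjusted p = 0.0402). The disputed columns belong to different mice, so such sums depend on their assignment, and sums with the exchange were not made. In the separate fractions the change of Jak2 with the exchange was 0.86 in tdT+ (adjusted p = 0.189) and 1.07 in tdT- sdCAMs (adjusted p = 0.0934). Without LPS mouse 5 it was 1.24 in tdT+ sdCAMs (adjusted p = 0.0694). WT sdCAMs held 23.4, 50.3 and 19.2 CPM untreated and 64.9, 5.83 and 35 CPM after LPS, and this spread gave an interval of -1.29 to 1.95. WT MG went from 36.6, 55.2 and 52.4 CPM to 60.4, 72 and 62.5 CPM, without overlap, with a log2 change of 0.44 ± 0.18 and an adjusted p of 0.0873.

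Jak3, which pairs with the common gamma chain of the IL-2 receptor family, rose 1.67-fold in WT and 1.66-fold in Ccr2-/- MG. In WT MG it went from 61, 64.7 and 60.9 CPM to 106, 102 and 102 CPM, tight groups far apart (log2 fold change 0.74 ± 0.14, adjusted p = 0.00198). In Ccr2-/- MG it went from 46.5, 41.6 and 45.6 CPM to 76.5, 76.1 and 66.6 CPM, also apart (0.73 ± 0.21, adjusted p = 0.0163). In Ccr2-/- MG 4 of 6 fits that left out a library passed, and those without LPS mouse V1m (0.71, adjusted p = 0.0550) or untreated mouse 3m (0.69, 0.0625) did not. In Ccr2Cre MG it was 36.8 to 50.1 CPM after PBS and 34.0 to 73.6 CPM after LPS, with overlap (0.38 ± 0.45, adjusted p = 0.829).

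In sdCAMs Jak3 did not pass. Ccr2-/- sdCAMs went from 50.9, 35.2 and 59.6 CPM to 57.6, 56.8 and 45.7 CPM, with overlap (0.14 ± 0.26), and WT sdCAMs from 23.0, 18.7 and 44.2 CPM to 24.2, 23.3 and 12.3 CPM, with overlap (-0.38 ± 0.52). The tdT+ libraries went from 27.0, 20.2 and 26.5 CPM to 31.8, 57.5 and 82.0 CPM, without overlap, for a log2 change of 1.22 ± 0.47 (adjusted p = 0.0956, and 0.0392 with DESeq2). The tdT- libraries went from 37.3, 42 and 37.7 CPM to 10.9, 19.0 and 28.0 CPM, also without overlap, for a change of -1.03 ± 0.47 (adjusted p = 0.117). With the 2 disputed columns exchanged, the changes were 0.45 in tdT+ (adjusted p = 0.693) and 0.14 in tdT- (adjusted p = 0.907).

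Tyk2, a kinase of the type I interferon and IL-12 receptors, fell in Ccr2-/- sdCAMs from 63.9, 54.7 and 61.8 CPM to 26.1, 27.1 and 42.5 CPM, without overlap (log2 fold change -0.92 ± 0.25, adjusted p = 0.0165). It passed in 2 of 6 fits that left out a library, and the adjusted p was 0.0861 without LPS mouse V1m, 0.0748 without V2m, 0.0611 without untreated mouse 1m and 0.0565 without 5f. The log2 changes in the other sdCAM populations were -0.99 ± 0.58 in WT, -0.82 ± 0.50 in tdT+ and -0.79 ± 0.50 in tdT-, with adjusted p of 0.323, 0.307 and 0.258. In tdT- sdCAMs it passed without LPS mouse 1 (-1.56, adjusted p = 0.0351), and with the exchange the changes were -1.29 in tdT- (adjusted p = 0.0882) and -0.48 in tdT+ sdCAMs (adjusted p = 0.557). In MG they were -0.25 ± 0.22 in WT, -0.13 ± 0.22 in Ccr2-/- and 0.65 ± 0.73 in Ccr2Cre mice (0.16 without mouse 175).

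Jak1, which serves most of these receptors, passed in 0 of the 7 populations. Its log2 changes lay between -0.47 in tdT- sdCAMs and 0.11 in WT MG. The interval was -0.24 to 0.45 in WT MG and -0.25 to 0.32 in Ccr2-/- MG, and as wide as -1.49 to 0.57 in WT sdCAMs. Its level was 126 to 458 CPM over all 54 libraries.

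The next comparison asked whether sdCAMs and MG of the same mice differed at rest. Of the members, 2 passed in WT, where 17.4% of genes did, 1 in Ccr2-/- mice, where 22.4% did, and 0 in Ccr2Cre mice, where 11.2% did and 1 member was at an unadjusted p under 0.05 in edgeR and 1 passed in DESeq2. Stat2 was 3.0-fold higher in sdCAMs than in MG of untreated Ccr2-/- mice, at 103 ± 8.79 against 34.3 ± 10.2 CPM (SD, n = 3; log2 difference 1.58 ± 0.24 SE, adjusted p = 6.39e-05), and each of the 6 fits that left out a library passed. The Stat2 difference was 0.58 ± 0.39 in WT (adjusted p = 0.324) and 1.97 ± 0.82 in Ccr2Cre mice (adjusted p = 0.136, and 0.0477 with DESeq2), the latter including the MG library of mouse 175. Without that library it passed, at 1.37 (adjusted p = 0.0416). In Ccr2Cre mice the value for sdCAMs is the average of tdT+ and tdT- libraries.

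In untreated WT mice Stat6 was 115 ± 45.2 CPM in sdCAMs and 249 ± 19.9 CPM in MG (log2 difference -1.11 ± 0.37, adjusted p = 0.0468) and Jak3 was 28.6 ± 13.7 against 62.2 ± 2.18 CPM (-1.12 ± 0.33, adjusted p = 0.0263). With the mouse as a replicate block, since MG and sdCAMs came from the same animals, both missed the threshold, with adjusted p of 0.0786 for Stat6 and 0.0581 for Jak3. Each passed in only 1 of the 6 fits that left out a library, the one without the sdCAM library of mouse 15 (Stat6 -1.44, adjusted p = 0.0189, and Jak3 -1.54, adjusted p = 0.00418, edgeR). In the other 5 the adjusted p ran from 0.0996 to 0.150 for Stat6 and from 0.0702 to 0.0887 for Jak3. The 2 marked WT sdCAM libraries held Stat6 at 86.8 and 91.6 CPM and the unmarked one at 167 CPM, and Jak3 at 23.0 and 18.7 against 44.2 CPM. The unmarked library, that of mouse 15, also held the MG markers at 37.6% of their level in MG of the same mouse, against 24.6% and 25.1% in the marked ones and 8.46% to 12.2% in untreated Ccr2-/- sdCAMs, and the part of MG transcripts in these differences was not tested. In Ccr2-/- mice the differences had the other sign and did not pass, 0.38 ± 0.17 for Stat6 (adjusted p = 0.131) and 0.12 ± 0.24 for Jak3 (adjusted p = 0.793).

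**Figure D4:**
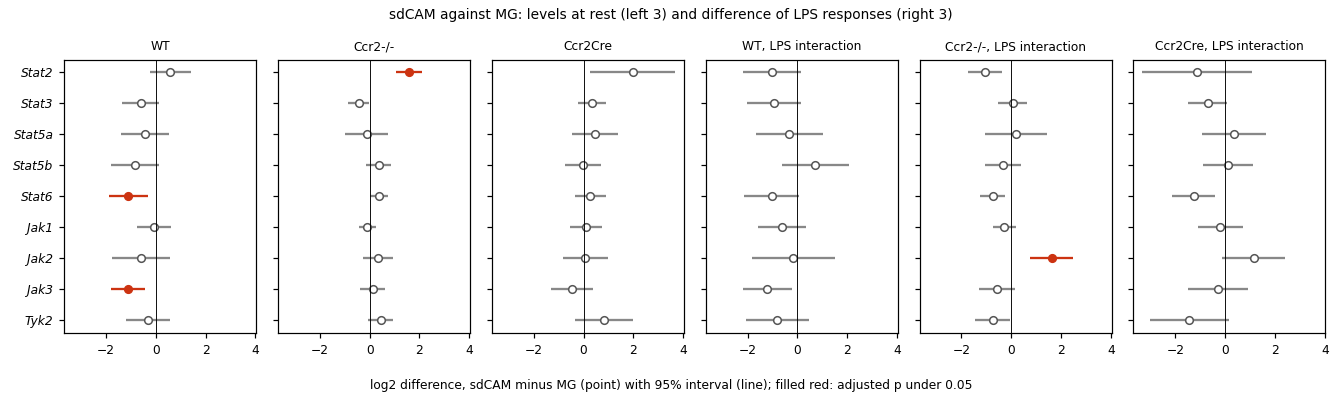
Log2 differences between sdCAMs and MG (horizontal axes) of the 9 members, as points with 95% intervals, filled where the adjusted p was under 0.05. The left 3 panels show levels at rest and the right 3 the LPS response of sdCAMs minus that of MG, where only Jak2 in Ccr2-/- mice passed.

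Whether the response to LPS differed between the cell types was tested as an interaction. In Ccr2-/- mice 1 member passed, against 8.14% of genes, and this was Jak2, whose response was larger in sdCAMs by 1.62 ± 0.41 on the log2 scale (adjusted p = 0.0175). Of 12 fits that left out a library, 9 passed, and without LPS mouse V1m of MG (1.48, adjusted p = 0.0580) or of sdCAMs (1.34, 0.0569) or without untreated mouse 3m of MG (1.42, 0.0604) it did not. The response of Stat2 was smaller in Ccr2-/- sdCAMs than in MG by 1.05 on the log2 scale, with an adjusted p of 0.0606, which became 0.0495 with the mouse as a replicate block and 0.0330 with DESeq2. That of Stat6 differed by -0.75 ± 0.24 (adjusted p = 0.0689, and 0.0468 with DESeq2). Stat3, Stat5a, Stat5b, Jak1, Jak3 and Tyk2 had differences of 0.06, 0.20, -0.33, -0.27, -0.57 and -0.75, all with adjusted p above 0.2.

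In WT mice 0 members passed the interaction, 1 was at an unadjusted p under 0.05 and 1.32% of genes passed, while the median over all genes was -0.23. The values of Jak2 and Stat6 were -0.16 ± 0.79 and -1.04 ± 0.52, and that of Stat6 was -0.60 with the IEG mark as a covariate (adjusted p = 0.381). In Ccr2Cre mice 0 passed in edgeR, with 1 at an unadjusted p under 0.05 and 2.15% of genes passing, around a median of -0.11 over all genes. Jak2 there had 1.15 ± 0.61 (adjusted p = 0.396) and Stat6 -1.27 ± 0.42 (adjusted p = 0.130), which passed without the MG library of mouse 175 (-1.71, adjusted p = 0.0287) but not with the exchange (-1.24, adjusted p = 0.274).

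The comparison of genotypes asked whether loss of Ccr2 changed the levels or the responses. WT and Ccr2-/- mice came from different breeders and their counts from separate tables, so genotype, source and table cannot be told apart. At rest Tyk2 was the 1 member that passed in MG, where 17.5% of genes did. It was 44 ± 11.4 CPM in Ccr2-/- and 91.7 ± 23.8 CPM in WT MG, a 2.11-fold lower level (log2 difference -1.08 ± 0.23, adjusted p = 0.00329), and the single libraries, 56.7, 34.5 and 40.9 against 81.0, 119 and 75.3 CPM, did not overlap. All 6 fits that left out a library passed.

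In sdCAMs at rest Stat6 was the 1 member that passed, against 9.6% of genes, with 287 ± 19.3 CPM in Ccr2-/- and 115 ± 45.2 CPM in WT mice (log2 difference 1.36 ± 0.39, adjusted p = 0.0345). The groups did not overlap, at 264 CPM and above against 167 CPM and below, but only 1 of 6 fits that left out a library passed, the one without WT mouse 15 (1.67, adjusted p = 0.0180, edgeR). In the other 5 the adjusted p ran from 0.0864 to 0.118. Mouse 15 is the untreated WT sdCAM library with the highest MG markers. For no member did the difference in LPS response between the genotypes pass. In MG 0 of 9 members passed and 0% of genes did, with 503 genes and 0 members at an unadjusted p under 0.05, and the differences of the responses lay between -0.29 for Stat5a and 0.31 for Stat2. In sdCAMs 0 of 9 members passed and 0% of genes did, with 1792 genes and 0 members at an unadjusted p under 0.05 and a median of 0.17 over all genes, and Jak2 had 1.64 with an interval of -0.12 to 3.40.

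Earlier depletion with BLZ945 was compared with CTL among mice that all received LPS. In the 4 populations 0 members passed in edgeR. The shares of genes that passed were 0.0763% in WT MG, 0% in WT sdCAMs, 0.0173% in Ccr2-/- MG and 0% in Ccr2-/- sdCAMs, and 0, 0, 2 and 2 members were at an unadjusted p under 0.05. Stat2 was 94.9 ± 11.0 CPM after BLZ945 and 142 ± 34.6 CPM after CTL in Ccr2-/- MG (log2 difference -0.59 ± 0.22, adjusted p = 0.686). It was 133 ± 42.7 and 204 ± 18.4 CPM in Ccr2-/- sdCAMs (-0.64 ± 0.22, adjusted p = 0.494). Jak2 in Ccr2-/- sdCAMs was 93, 105 and 136 CPM after BLZ945, all below the CTL range of 154 to 272 CPM (-0.86 ± 0.32, adjusted p = 0.523). In WT MG the interval for Stat3 was -0.38 to 0.15 and that for Jak3 -0.33 to 0.26, whereas in WT sdCAMs intervals were as wide as -0.46 to 2.80 for Jak2. All 3 WT sdCAM libraries of the CTL LPS group carried the IEG mark. Of the BLZ945 LPS group only that of mouse 12 did, so treatment and mark cannot be fully told apart there.

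Cells with and without the tdT label were compared as tdT+ against tdT- sdCAMs of the same mice. Ccr2 lay at 230 to 281 CPM in tdT+ and at 142 to 194 CPM in tdT- sdCAMs after PBS. It was 17 to 51 CPM in untreated WT sdCAMs. The share of unlabelled cells of Ccr2 descent in the tdT- fraction was not tested, so the contrast is one of label and not strictly of descent. After PBS 0 members passed, with 0 at an unadjusted p under 0.05 and 0.0236% of genes passing. Stat6 stood at 206 ± 18.2 CPM in the tdT+ fraction and at 273 ± 20.3 CPM in the tdT- fraction (log2 difference -0.41 ± 0.28) and Jak3 24.6 ± 3.79 against 39 ± 2.59 CPM (-0.67 ± 0.46), both without overlap and both with an adjusted p of 1. After LPS 1 member passed, against 10.8% of genes, namely Jak3, at 57.1 ± 25.1 CPM in the former and 19.3 ± 8.54 CPM in the latter (1.57 ± 0.47, adjusted p = 0.0444), where the median over all genes was 0.11. With the 2 disputed columns exchanged the sign turned, to -0.36 (adjusted p = 0.99), and with the mouse as a replicate block as well to -0.43 (0.987). It passed in 2 of 6 fits that left out a library, without the tdT- library of mouse 7 (1.99, adjusted p = 0.0267, edgeR) and without the tdT+ library of mouse 1 (1.87, adjusted p = 0.0285, edgeR). In the other 4, without the tdT- library of mouse 1 or 5 or the tdT+ library of mouse 5 or 7, the adjusted p ran from 0.0808 to 0.188. The interaction of the tdT label and LPS had 0 members passing in edgeR and 1 in DESeq2. In edgeR 2 were at an unadjusted p under 0.05 and 5.17% of genes passed, around a median of 0.16. Jak3 had 2.25 ± 0.66 (adjusted p = 0.0629), or 0.31 (adjusted p = 1.00) after the exchange.

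The genes around the members were followed in lists of ligands, receptors, inhibitors, partners and target genes of the pathway. These lists were chosen with earlier results of these data known, so counts within them are a description and not a test of the pathway. Of the 9 listed STAT3 targets, 9 rose in WT MG, in Ccr2-/- MG and in Ccr2-/- sdCAMs, where 16.7%, 19.4% and 15.8% of all genes tested rose and 14.2%, 15.5% and 13.1% fell. Their median log2 fold changes were 3.23, 3.79 and 1.83, against medians of 0.02, 0.00 and -0.05 over all genes. In Ccr2Cre mice 2 of 9 rose in MG and 4 in each sdCAM fraction, and in WT sdCAMs 2 of 9 rose, with medians of 1.60, 0.77, 0.61 and 1.35. In these 4 populations 0.662%, 7.63%, 14.7% and 3.7% of all genes rose and 0.423%, 6%, 12.4% and 2.62% fell, around medians of 0.03, 0.02, 0.04 and -0.08. With the exchange 4 of 9 rose in each sdCAM fraction, where 5.41% of genes rose in tdT+ and 6.55% in tdT- sdCAMs, and without mouse 175 4 of 9 rose in Ccr2Cre MG, where 1.98% of genes did. Socs3, the feedback inhibitor of Stat3 signalling, went from 8.24 ± 0.529 to 730 ± 63.2 CPM in Ccr2-/- sdCAMs (adjusted p = 3.50e-09) and from 24.1 ± 2.11 to 463 ± 192 CPM in WT MG (adjusted p = 9.18e-07). Lcn2, an iron-binding acute-phase protein, rose from 11.8 ± 11.2 to 6575 ± 358 CPM in Ccr2-/- sdCAMs, and Saa3 from 66.1 ± 56.2 to 64162 ± 5190 CPM.

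Of the 9 ISGF3 targets, 5 rose in WT MG, 9 in Ccr2-/- MG, 7 in Ccr2-/- sdCAMs, 3 in WT sdCAMs and 5 in tdT- sdCAMs, with medians of 1.59, 3.05, 2.74, 1.49 and 1.5, where 16.7%, 19.4%, 15.8%, 3.7% and 14.7% of all genes rose. In tdT+ sdCAMs 0 rose and 3 fell, with a median of -0.43, where 7.63% of genes rose and 6% fell. Ifit3 went from 179 ± 136 to 50.5 ± 8.01 CPM there (adjusted p = 0.0336), Ifit2 from 156 ± 106 to 41.2 ± 26.4 CPM (0.0487), and Usp18, a protease that restrains the interferon receptor, from 227 ± 149 to 71.8 ± 19.3 CPM (0.0198), with wide spreads after PBS. With the exchange 0 of the 9 fell in tdT+ sdCAMs, at a median of -0.03, and Ifit3, Ifit2 and Usp18 had adjusted p of 0.109, 0.0812 and 0.0899, while in tdT- sdCAMs 3 rose. Without tdT+ LPS mouse 5, 2 of the 9 fell, Ifit2 (adjusted p = 0.0250) and Usp18 (0.0221), but not Ifit3 (0.0862). In Ccr2Cre MG 0 of 9 passed in either direction, with a median of 1.45, where 1.08% of genes passed. Irf7, an interferon regulatory factor, rose from 92.5 ± 37.4 to 973 ± 110.2 CPM in Ccr2-/- sdCAMs and from 13.6 ± 3.95 to 76.7 ± 42 CPM in WT MG.

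The STAT2 partner Irf9 was tested in all 7 populations and rose in MG of WT mice, from 91.8 ± 3.69 to 155 ± 15.6 CPM (log2 fold change 0.76 ± 0.13, adjusted p = 0.00146, edgeR), and of Ccr2-/- mice, from 91.5 ± 5.91 to 196 ± 5.95 CPM (1.12 ± 0.13, adjusted p = 1.72e-05). In the other 5 populations it did not pass. Stat4, a STAT factor of interleukin-12 signalling, was tested in both sdCAM fractions of Ccr2Cre mice and passed in neither.

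Of the STAT5 targets, 4 of 4 tested rose in WT MG, 3 of 5 in Ccr2-/- MG, 2 of 5 in Ccr2-/- sdCAMs, 1 of 4 in Ccr2Cre MG, 1 of 5 in tdT+, 2 of 5 in tdT- and 0 of 3 in WT sdCAMs, with medians of 2.07, 1.89, 0.95, 1.19, 0.81, 3.48 and 0.31. In the same order 16.7%, 19.4%, 15.8%, 0.662%, 7.63%, 14.7% and 3.7% of all genes rose, and the counts in tdT+ and tdT- sdCAMs were also 1 and 2 with the exchange. The kinase gene Pim1, also listed under STAT3, rose from 11.7 ± 3.45 to 40.8 ± 5.19 CPM in Ccr2-/- sdCAMs. Of the STAT6 targets, 1 rose and 2 fell of 4 in WT MG, 2 rose and 2 fell of 5 in Ccr2-/- MG and of 4 in Ccr2-/- sdCAMs, and 1 of 5 fell in tdT- sdCAMs, while 0 of 2, 0 of 5 and 0 of 3 passed in Ccr2Cre MG, tdT+ and WT sdCAMs. The medians were 0.37, 0.76, -0.07, -1.18, -1.20, -1.36 and 1.14 in that order, and of all genes 30.9%, 34.9%, 28.8%, 27.1%, 1.08%, 13.6% and 6.32% passed in either direction. With the exchange 0 passed in both sdCAM fractions, and without tdT+ LPS mouse 5 1 fell in tdT+ sdCAMs. Mrc1, which encodes the CD206 used for sorting, fell from 7087 ± 446 to 1370 ± 69.8 CPM in Ccr2-/- sdCAMs and from 4400 ± 561 to 790 ± 82.1 CPM in tdT- sdCAMs, the latter with an adjusted p of 0.0535 with the exchange. Il4ra, the receptor chain upstream of Stat6, rose from 575 ± 30.5 to 1243 ± 178 CPM in Ccr2-/- sdCAMs and from 225 ± 8.77 to 870 ± 345 CPM in WT MG.

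Receptor genes moved in both directions. Of those tested, 5 rose and 7 fell of 23 in WT MG, 6 and 7 of 23 in Ccr2-/- MG, 9 and 6 of 24 in Ccr2-/- sdCAMs, 5 and 4 of 27 in tdT+ and 8 and 7 of 27 in tdT- sdCAMs, whereas in WT sdCAMs 2 of 21 and in Ccr2Cre MG 1 of 21 rose and 0 fell. The medians were -0.04, -0.16, 0.39, 0.01, 0.27, -0.37 and -0.36 in that order. In either direction 52.2%, 56.5%, 62.5%, 33.3%, 55.6%, 9.52% and 4.76% of the tested receptors passed, against 30.9%, 34.9%, 28.8%, 13.6%, 27.1%, 6.32% and 1.08% of all genes. With the exchange 4 rose and 1 fell of 27 in tdT+ and 6 and 6 of 27 in tdT- sdCAMs, and without mouse 175 2 rose and 2 fell of 21 in Ccr2Cre MG. Il15ra, the IL-15 receptor chain, rose in WT MG from 16.1 ± 4.53 to 157 ± 45 CPM and in Ccr2-/- sdCAMs from 6.54 ± 3.57 to 269 ± 57 CPM. Il2rg, the gamma chain that Jak3 binds, rose from 8.77 ± 3.04 to 101 ± 45.5 CPM in WT MG, from 10.2 ± 1.05 to 163 ± 28.9 CPM in Ccr2-/- MG and from 8.41 ± 2.85 to 106 ± 44.8 CPM in WT sdCAMs. Il21r fell in WT MG, in Ccr2-/- sdCAMs, where it went from 226 ± 32.8 to 46.1 ± 13.8 CPM, and in tdT+ and tdT- sdCAMs. Il6st, the shared chain of the IL-6 family that engages Stat3, fell from 464 ± 61 to 177 ± 18.4 CPM in Ccr2-/- MG.

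**Figure D5:**
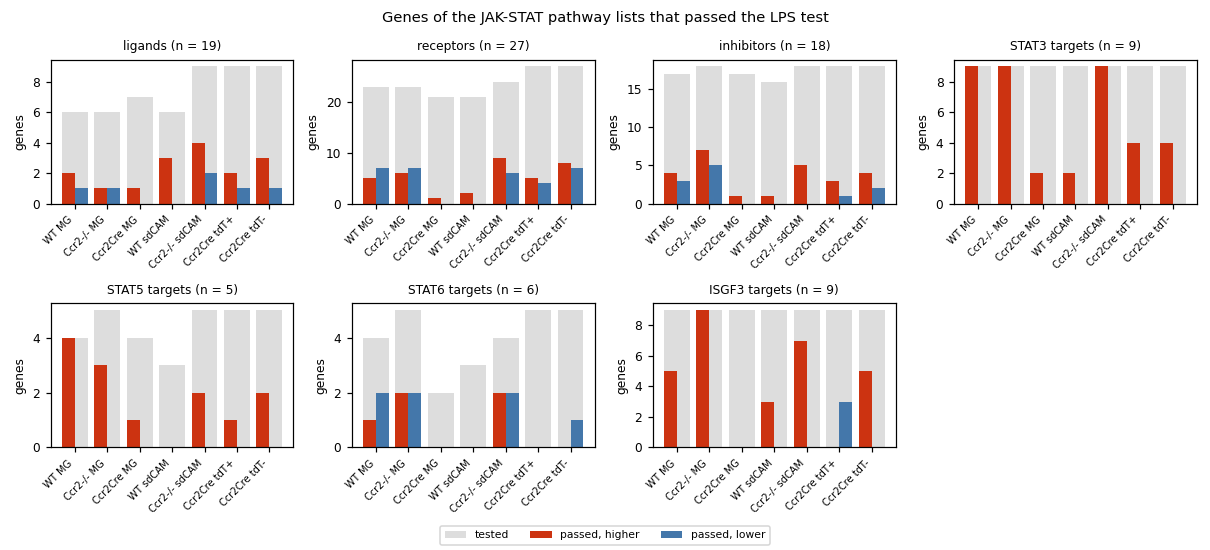
Number of genes (vertical axes) of 7 pathway lists that were tested (grey), rose (red) or fell (blue) at an adjusted p under 0.05 with LPS in 7 populations (horizontal axes). All 9 STAT3 targets rose in WT MG, Ccr2-/- MG and Ccr2-/- sdCAMs, and receptors moved in both directions. The lists were chosen with earlier results of these data known.

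Of the 19 listed ligands, 6 to 9 passed the low-count filter. In WT MG 2 rose and 1 fell of 6, in Ccr2-/- MG 1 and 1 of 6, in Ccr2-/- sdCAMs 4 and 2 of 9, in tdT+ sdCAMs 2 and 1 of 9, in tdT- sdCAMs 3 and 1 of 9, in WT sdCAMs 3 and 0 of 6 and in Ccr2Cre MG 1 and 0 of 7, with medians of -0.03, 0.63, 2.04, 0.09, 1.34, 3.70 and 0.77. The shares of tested ligands that passed were 50%, 33.3%, 66.7%, 33.3%, 44.4%, 50% and 14.3%, beside 30.9%, 34.9%, 28.8%, 13.6%, 27.1%, 6.32% and 1.08% of all genes, and with the exchange 2 rose and 0 fell in each of tdT+ and tdT- sdCAMs. Csf3, the granulocyte growth factor, was at 0 in every PBS library of all 4 sdCAM populations and rose at least 332-fold in Ccr2-/- sdCAMs, at least 27.7-fold in WT, at least 86.1-fold in tdT+ and at least 441-fold in tdT- sdCAMs, each against a floor of 3 counts per library. Il15 fell in WT MG, Ccr2-/- MG, Ccr2-/- sdCAMs, tdT+ and tdT- sdCAMs, from 29.8 ± 2.55 to 8.42 ± 2.72 CPM in WT MG, and with the exchange its adjusted p was 0.0932 in tdT+ and 0.0541 in tdT- sdCAMs. Of the inhibitors, 4 rose and 3 fell of 17 in WT MG, 7 and 5 of 18 in Ccr2-/- MG, 5 and 0 of 18 in Ccr2-/- sdCAMs, 3 and 1 of 18 in tdT+, 4 and 2 of 18 in tdT- sdCAMs, 1 and 0 of 16 in WT sdCAMs and 1 and 0 of 17 in Ccr2Cre MG, with medians of 0.27, 0.44, 0.52, 0.26, 0.68, -0.01 and 0.04. The shares of tested inhibitors that passed, 41.2%, 66.7%, 27.8%, 22.2%, 33.3%, 6.25% and 5.88%, lay near those of all genes in Ccr2-/- sdCAMs, tdT- and WT sdCAMs. With the exchange 2 rose and 0 fell in tdT+ and 3 and 0 in tdT- sdCAMs. Socs2 rose in WT, Ccr2-/- and Ccr2Cre MG and in tdT- sdCAMs, and Pias3, an inhibitor named for STAT3, fell in WT MG from 40.9 ± 3.43 to 23.2 ± 4.38 CPM and in Ccr2-/- MG from 28.6 ± 1.71 to 13.9 ± 2.12 CPM. Genes in more than 1 list (Il4ra, Osm, Socs2, Socs3, Cish, Usp18 and Pim1) were counted in each.

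The genes most like each member that passed in 2 or more LPS responses were sought by Pearson's correlation of log2(CPM + 1) over the 18 group means, among 8764 genes. The points share libraries of the same mice, the cell types and the LPS contrast, so the coefficients are a description. Stat3 was most like Mcl1 (r = 0.963), a survival gene that is on the list of STAT3 targets, then Qsox2 (0.937) and Abce1 (0.932). Stat6 was most like Tbc1d9b (0.955), Il13ra1 (0.954), a receptor chain for IL-13 on the receptor list, and Ticam2 (0.947). Stat2 was most like Map3k6 (0.912), Man2a1 (0.905) and Ptger4 (0.898). Stat5b was most like H2ac25 (0.889), Bcl2l11 (0.879) and Cbx7 (0.859), and Jak3 was most like Lrpprc (0.940), Iars1 (0.919) and Tbc1d14 (0.919).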

How the data were processed

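From RNA of sorted cells the authors made SMARTer cDNA and Nextera XT libraries, sequenced them as single reads, aligned them with STAR 2.7.11a and counted them with featureCounts 2.0.8. The deposited values were raw counts per gene symbol, in 3 tables whose 54 columns were all matched to libraries by number, animal and population (0 unmatched). The build was named as either of 2 mouse builds, so no coordinates were taken from the tables, and exon lengths came from GENCODE M21. Amplified reads without molecular identifiers are not independent molecules, so count floors cover counting error only.

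Counts were fitted with edgeR 4.0.16 in R 4.3.3 (filterByExpr, TMM scaling, quasi-likelihood F test, two-sided, Benjamini-Hochberg over all genes tested). The 9 libraries of a cell type and genotype shared a fit, as did the 12 reporter sdCAM libraries, the 6 reporter MG libraries, and 18 libraries for comparisons across cell types or genotypes. Levels are TMM-scaled CPM over all 54 libraries, and SE is that of the log2 fold change. Mouse numbers pair MG and sdCAMs of an animal. Over 36 such pairs the correlation of deviations from group means ran from -0.127 to 0.33 (median 0.0842), with 15 over 0.1. Titles of Ccr2-/- LPS libraries named the other cell type than the cell type field and library name, which were used. Alternatives were DESeq2 1.42.0, its size factors, other low-count rules (a mean of 10 counts, or the study's), a log2 fold limit of 1, fits of only the libraries compared, the mouse as a replicate block, the IEG mark, exchanged columns, summed counts per mouse and omission of each library. Refits of the list counts with exchanged columns or without 2 single libraries were chosen after seeing the data. Fits of the LPS responses in WT MG, WT sdCAMs and Ccr2-/- sdCAMs were run on counts simulated from their own means and spreads. Such counts cannot show whether the model holds for the data.

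The members and lists were chosen with earlier results of these data known, and 1 listed gene is not reported here. Named list genes were up to 2 higher and 2 lower calls per list and response with the largest fold among those of at least 10 CPM, of which some are reported, and likeness was sought above a mean of 10 CPM. Promoters are RefSeq's on GRCm38.p6.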

Additional observations from a re-analysis of the deposited data

Results flagged for a closer look

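The response of Jak2 to LPS differed between cell types in Ccr2-/- mice by the interaction test. It was larger in sdCAMs than in MG by 1.62 on the log2 scale (adjusted p = 0.0175, edgeR), with all 3 LPS libraries of sdCAMs above all 3 untreated ones and overlapping groups in MG. The same difference was -0.16 in WT and 1.15 in Ccr2Cre mice, where it did not pass, and whether it differs between these mice was not tested.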

How the results depend on the processing

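Counts of members that passed changed as follows, and the cause was not tested. With a log2 fold limit of 1, 2 members passed for LPS in WT MG and 2 in Ccr2-/- MG. With DESeq2, 3 passed for LPS in tdT+ sdCAMs and 3 for the cell type interaction in Ccr2-/- mice. It also gave 1 for sdCAMs against MG at rest in Ccr2Cre mice and 1 for the interaction of the tdT label and LPS. With counts summed per mouse, 2 passed for LPS in reporter sdCAMs. With exchanged columns, 1 passed for LPS in tdT- sdCAMs and 0 for tdT+ against tdT- after LPS, where Jak3 turned to -0.36, or to -0.43 with the mouse as a replicate block as well, also with 0 passing. For WT at rest, 1 passed with the study's low-count rule, with a mean of 10 counts or with median-of-ratios size factors, and 0 with the mouse as a replicate block, which gave 2 for the cell type interaction in Ccr2-/- mice and changed no other count by over 1.5 times. For tdT+ against tdT- after LPS, 0 passed with the study's low-count rule or with median-of-ratios size factors. Ccr2-/- against WT at rest had 2 passing in MG with a mean of 10 counts and 0 in sdCAMs with median-of-ratios size factors.

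Over fits that left out 1 library, 0 to 1 members passed for Ccr2-/- against WT at rest in sdCAMs, for LPS in tdT+ sdCAMs, for sdCAMs against MG at rest in Ccr2Cre mice, for the cell type interaction in Ccr2Cre mice, for tdT+ against tdT- after LPS and for its interaction with LPS, 1 to 3 for LPS in tdT- sdCAMs, 0 to 2 for the cell type interaction in Ccr2-/- mice and 0 to 2 for WT at rest. Of the values of single members, 1652 kept their side of the threshold without a library, among them 121 that passed in neither fit and changed sign, 38 lost the threshold, 11 gained it and 0 that passed changed sign. Under the other alternatives these were 1352, 29, 18, 14 and 2.

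Members rested on as few as 5 counts in WT sdCAMs, whose libraries held 1705930 to 7699790 counts. Ccr2Cre MG libraries held 7814144 to 10623650 counts and had a common coefficient of biological variation of 0.81, against 0.257 in WT MG.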
